A study of Homo sapiens with 6 samples.

Results

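The replication-dependent histone genes were taken as the protein-coding genes whose symbol in GENCODE release 29 starts with HIST1H, HIST2H, HIST3H or HIST4H. There were 71 such genes, of which 68 were matched to the count tables by Ensembl ID. For another 2, HIST1H3B and HIST1H3C, the annotation's ID was missing from the tables and the gene was found by its current symbol (H3C2 and H3C3), and 1, HIST2H3PS2, was not matched. The 70 genes found stood among 60612 gene IDs, and 57 of them had enough counts to be tested among 15395 genes. The 70 comprised 6 linker histone H1 genes, 17 H2A, 18 H2B, 14 H3 and 15 H4 genes.

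RNA was measured in KO52, an established acute myeloid leukemia line whose label gives it as CEBPA double mutant, so that every library carried that genotype. The cells had been transduced with the doxycycline-inducible lentiviral vector pCW57.1, with an insert for a dominant negative C/EBP peptide (dnCEBP), with an insert for a dominant negative FOS peptide (dnFOS), or as the empty vector (EV). Both peptides pair with members of the C/EBP or AP-1 families of transcription factors and keep them off DNA, and the comparison with EV addresses what the loss of that binding does to gene expression. There were 2 libraries in each of the 3 groups. Nothing read here says that they came from separate cultures, so the p-values measure the spread between these libraries, which may be technical. GFP-positive cells were sorted after doxycycline treatment, as the study's text describes. That text gives a duration of induction for dnCEBP beside its chromatin accessibility data, while the dose, and the duration in the dnFOS and EV libraries, are not given in the sources used here. Fewer cells expressing a gene and less RNA per cell cannot be told apart in bulk RNA.

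Histone proteins package DNA into nucleosomes. H2A, H2B, H3 and H4 form the core around which DNA is wrapped, and H1 binds the DNA that links neighbouring cores. The clustered genes that encode most of them are transcribed mainly in S phase, when new DNA has to be packaged, and the factor NPAT couples their transcription to entry into that phase. Their mRNAs are unusual in that most lack introns and a poly(A) tail and end instead in a conserved stem-loop, bound by the stem-loop binding protein SLBP. Such mRNAs are lost when libraries are primed or selected by poly(A) and can be seen in libraries depleted of ribosomal RNA, as these were per the labels.

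The stem-loop was searched on the coding strand of the annotated transcripts as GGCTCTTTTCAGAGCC, with any base allowed in place of the C that follows the run of T. It was present in 24 of 82 protein-coding transcripts of these genes and in 2 of 83047 protein-coding transcripts of all other genes. Both of the latter belonged to AL031777.3, which overlaps 2 histone genes, HIST1H3D and HIST1H2AD. By gene, 22 of 71 held it, 17 with C and 5 with A at the free position. A missing match says little here, because annotated transcripts may end before the element. In 38 of the genes a single short exon held a whole number of codons, as a coding length alone would. Their coding sequences were not checked, and HIST2H2AA3 and HIST2H2AA4, which held the element, were among the 38. The element is printed in capitals, with flanking bases in lower case, for the most abundant H2A gene and for 4 genes described further on.
HIST1H2AE: aaccaaaGGCTCTTTTCAGAGCCacccacc
HIST1H3H: acccaaaGGCTCTTTTCAGAGCCacccaca
HIST1H2BE: acccaaaGGCTCTTTTCAGAGCCactcacc
HIST2H2BF: ccccaaaGGCTCTTTTCAGAGCCacttcag
HIST1H3G: ttaaaaaGGCTCTTTTAAGAGCCgcctact
These read 5′ to 3′ on the coding strand of GRCh38, from genes at chr6:26216975-26217483 and chr6:27810064-27811300 (plus strand), chr6:26172059-26184655 (plus), chr1:149782689-149812373 (minus) and chr6:26269405-26271815 (minus). The capitals were the same in the first 4 genes, while HIST1H3G carried A at the free position. In HIST1H2AE the annotated transcript ended 51 bases after the element, and in HIST1H3G it ran on for 1518 bases, so the annotation held both short and long transcripts that contain a stem-loop.

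Promoters of 66 of the genes were found in the RefSeq set of windows from 250 bases before to 50 bases after the start (GRCh38.p14), and 5 motifs were searched on both strands. CCAAT was present in 56 of the 66 windows (84.8%) against 34.6% of all 35116 windows, TATAAA in 44 (66.7%) against 11.5%, and the octamer ATTTGCAT in 26 (39.4%) against 1.77%. The octamer stood in 14 of 18 H2B and 11 of 16 H2A windows, in 1 of 13 H3 windows and in 0 of 13 H4 and 0 of 6 H1 windows. CCAAT stood in all 53 windows of H1, H2A, H2B and H3 genes and in 3 of 13 H4 windows. TGANTCA is the core bound by AP-1 dimers, TGACTCA or TGAGTCA, with any middle base allowed. It was found in 1 of 66 windows (1.52%) against 7.71% of all windows, which includes forms other than that core. TTGCGCAA, a palindrome bound by C/EBP dimers, was found in 0 of 66 against 0.151%. The 1 window with TGANTCA was that of HIST1H3G, where the match reads TGATTCA and is not the core itself. A match is a run of letters and not a measured site, and no binding was measured here. The windows of 5 genes are printed, with each motif match in capitals. They are HIST1H3G and the 4 genes that differed between dnFOS and dnCEBP and share little sequence with other histone genes.
HIST2H2AB: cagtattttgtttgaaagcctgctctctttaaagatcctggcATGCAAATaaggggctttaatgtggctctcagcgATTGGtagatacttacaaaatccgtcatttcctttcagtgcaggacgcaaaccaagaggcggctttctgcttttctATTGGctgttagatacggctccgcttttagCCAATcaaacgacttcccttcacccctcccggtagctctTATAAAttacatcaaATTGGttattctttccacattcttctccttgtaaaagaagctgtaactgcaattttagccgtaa
HIST1H2BE: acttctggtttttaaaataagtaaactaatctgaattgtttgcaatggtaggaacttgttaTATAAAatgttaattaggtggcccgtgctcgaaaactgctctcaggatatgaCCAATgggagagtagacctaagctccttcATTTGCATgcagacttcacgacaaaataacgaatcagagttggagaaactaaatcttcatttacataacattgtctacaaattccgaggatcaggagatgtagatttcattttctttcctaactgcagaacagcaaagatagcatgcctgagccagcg
HIST4H4: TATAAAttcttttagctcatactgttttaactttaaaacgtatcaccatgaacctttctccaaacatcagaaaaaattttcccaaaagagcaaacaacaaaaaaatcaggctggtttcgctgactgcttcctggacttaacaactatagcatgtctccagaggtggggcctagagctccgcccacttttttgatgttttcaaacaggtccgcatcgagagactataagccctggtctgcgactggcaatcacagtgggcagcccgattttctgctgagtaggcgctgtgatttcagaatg
HIST2H2BF: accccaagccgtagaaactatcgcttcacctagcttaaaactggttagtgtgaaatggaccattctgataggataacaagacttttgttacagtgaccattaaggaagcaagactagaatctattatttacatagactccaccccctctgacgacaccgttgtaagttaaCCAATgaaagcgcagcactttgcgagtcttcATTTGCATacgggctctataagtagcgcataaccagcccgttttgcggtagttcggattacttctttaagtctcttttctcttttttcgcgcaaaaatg
HIST1H3G: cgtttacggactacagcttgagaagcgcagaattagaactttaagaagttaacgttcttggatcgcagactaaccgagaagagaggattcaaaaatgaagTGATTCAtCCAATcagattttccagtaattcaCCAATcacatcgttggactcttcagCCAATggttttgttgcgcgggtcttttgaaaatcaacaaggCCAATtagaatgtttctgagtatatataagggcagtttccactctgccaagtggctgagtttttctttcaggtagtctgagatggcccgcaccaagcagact
The windows lie at chr1:149887916-149888215 (minus strand), chr6:26183511-26183810 (plus), chr12:14771082-14771381 (minus), chr1:149812321-149812620 (minus) and chr6:26271364-26271663 (minus). HIST2H2AB held CCAAT 4 times, with 1 TATAAA and 1 octamer on the opposite strand, and HIST1H2BE held 1 of each. HIST2H2BF held 1 CCAAT and 1 octamer. HIST1H3G held CCAAT 4 times beside its single TGATTCA, and HIST4H4, a gene outside the large clusters, held a single TATAAA and none of the others.

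Total counts per library ran from 9862994 to 27663179 and were lowest in the dnFOS libraries, so 3 counts corresponded to between 0.108 and 0.304 CPM (counts scaled to a fixed library size). All 6 myeloid markers checked (PTPRC, CD33, CD34, KIT, SPI1 and MPO) were detected and tested. Of 8 markers of other cells, only HBB, at 0.580 to 2.48 CPM, and EPCAM, an epithelial surface protein, at up to 37.6 CPM, passed the filter, while the B cell marker MS4A1 was at 0 in all libraries. The myeloid enzyme MPO moved with the groups, at 239.1 and 194.0 CPM in EV, 63.5 and 53.0 CPM in dnCEBP, and then 152.8 and 140.0 CPM in dnFOS, and its part in the histone results was not tested. CPM values below use library sizes scaled by the TMM method.

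The share of all counts in histone genes ran from 0.872% to 1.09%. Their summed level was 11243 and 9944 CPM in the EV libraries, 9991 and 9129 CPM in dnCEBP, and 9269 and 8570 CPM in dnFOS. The group means were 10594 ± 919, 9560 ± 609 and 8920 ± 494 CPM (SD, n = 2 each). Both dnFOS sums lay below both EV sums, whereas the higher dnCEBP sum lay above the lower EV sum. As a log2 ratio of means, the sum was 0.25 lower in dnFOS than in EV (-0.25) and -0.15 in dnCEBP, and with 2 libraries a group an exact test of such sums cannot pass 0.05. HIST1, the large cluster on chromosome 6, supplied 95.2% to 95.5% of the summed level in every library. On library totals without the TMM factors the log2 ratios were -0.15 for dnFOS and -0.17 for dnCEBP.

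H3 genes, which encode the core histone whose tail carries many regulatory marks, had the largest difference in summed level between dnFOS and EV. Their summed level was 1759 and 1431 CPM in EV, 1515 and 1246 CPM in dnCEBP, and 1236 and 1057 CPM in dnFOS, a log2 ratio of -0.48 for dnFOS against EV and of -0.27 for dnFOS against dnCEBP. With TMM factors the dnFOS values were below both EV values and below both dnCEBP values. On library totals they stayed below EV but overlapped dnCEBP, with 1302 CPM in dnFOS replicate 1 and 1191 CPM in dnCEBP replicate 2. The corresponding log2 ratio of dnFOS to EV was -0.31 for H2A, -0.20 for H2B, -0.18 for H4 and -0.18 for H1 genes. On library totals all of these kept their sign against EV, from -0.08 for H1 to -0.38 for H3. Against dnCEBP, by contrast, the ratios of H1, H2A, H2B and H4, between -0.08 and -0.06 with TMM factors, turned to between 0.04 and 0.06 on library totals, and that of H3 was -0.15. Of the histone sum, H3 genes supplied 15.6% and 14.4% in the EV libraries and 15.2% and 13.7% in those with dnCEBP. In the dnFOS libraries the share was 13.3% and 12.3%, below all others.

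**Figure D1:**
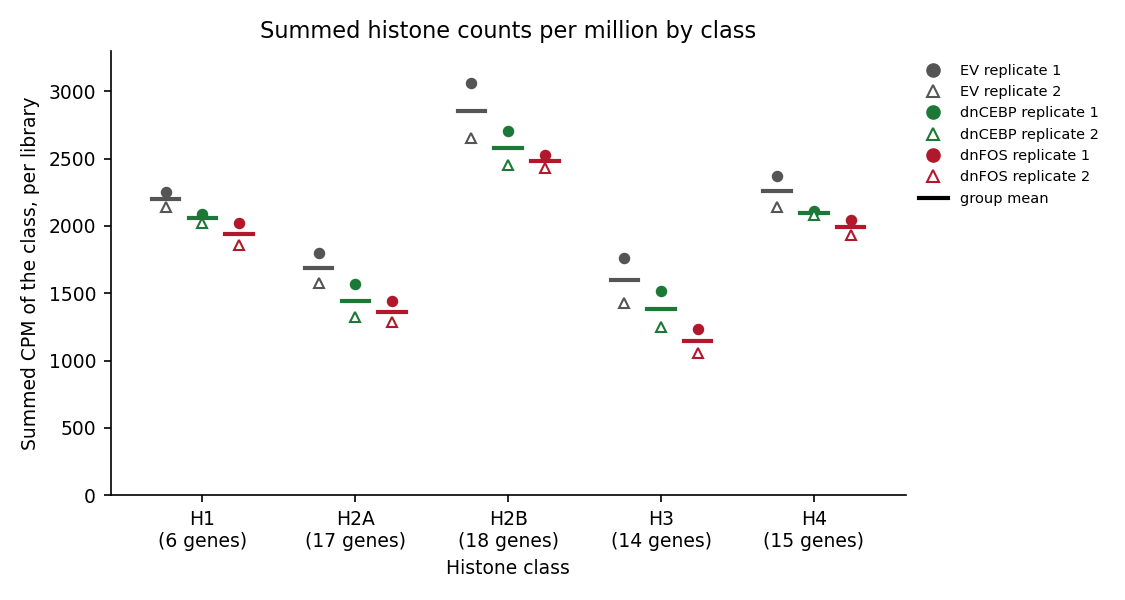
Summed CPM (vertical axis, TMM-scaled library sizes) of the genes of each histone class (horizontal axis) in each library. Points are single libraries and bars are group means. H3 genes stood at 1057 and 1236 CPM in dnFOS against 1431 and 1759 CPM in EV.

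Levels between genes were compared per kilobase of annotated exon. The annotated length ran from 297 to 5477 bases, so the ranking depends on the annotation. The highest EV levels were those of HIST1H1C, a linker histone gene, at 1337 CPM per kilobase, HIST1H4C at 1169, HIST1H3B at 1063, HIST1H4B at 1038 and HIST1H1B at 999. HIST1H2AE led the H2A genes at 897 and HIST1H2BK the H2B genes at 677 CPM per kilobase. At the other end, 13 of the 70 genes were not tested, with at most 20 counts in any library, and 5 of these were at 0 counts in all 6. Among them were the near-identical copies on chromosome 1. In EV, HIST2H2AA3 had 20 and 6 counts and its copy HIST2H2AA4 had 8 and 4, while the dnFOS counts were 4 and 2 for the former and 3 and 1 for the latter. HIST2H3A had 7 and 2 counts in the EV libraries, HIST2H3C 0 and 1, and HIST2H4B 8 and 3. HIST2H4A, the copy of HIST2H4B, passed the filter at 1.01 and 0.18 CPM in EV and 0.91 and 0.29 CPM in dnFOS. How reads that match several genes were counted is not stated, so the low values of these copies are uncertain. Of all 71 genes, 12 shared over 50% of their 75-base windows with another histone gene and 44 shared none.

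Most calls came from the comparison of dnFOS with EV. Of the 57 tested histone genes, 21 were lower in dnFOS (36.8%) and 0 were higher, at an adjusted p under 0.05 in edgeR's quasi-likelihood test with Benjamini-Hochberg adjustment over all genes. Among all genes tested, 7.76% were called lower and 7.24% higher. The log2 fold change was below 0 for 52 of 57 histone genes, against 49.6% of all genes, and its median was -0.27, against 0.00 for all genes. Both dnFOS libraries lay below both EV libraries for 42 of the 57 (73.7%), against 28.4% of all genes. They lay above them for 3 (5.26%), against 28.3% of all genes. The number called depended on single libraries. Without dnFOS replicate 2 or either EV replicate fewer of all genes were called, and the number of histone genes called changed as well. It was 6 without dnFOS replicate 2, 7 without EV replicate 1 and 27 without EV replicate 2. It fell to 9, 1 of them higher, on library totals, where 4.39% of all genes tested were called lower. There the median of all genes moved up by 0.10 and the median of the histone genes was -0.17. The share of lower genes among all called went from 51.7% to 26.2%.

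By class, 7 of 10 tested H3 genes, 5 of 14 H2A, 6 of 17 H2B, 3 of 12 H4 and 0 of 4 H1 genes were called lower in dnFOS. The median log2 fold changes were -0.41, -0.29, -0.25, -0.21 and -0.18 in the same order. The called genes fell by a median of 0.41 on the log2 scale, and only HIST1H4J and HIST2H3D fell by more than 1. Of the 10 H3 genes, HIST1H3C, HIST1H3A and HIST1H3E were not called, and HIST1H3E was nearly silent, at 0.88 and 1.01 CPM in EV.

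**Figure D2:**
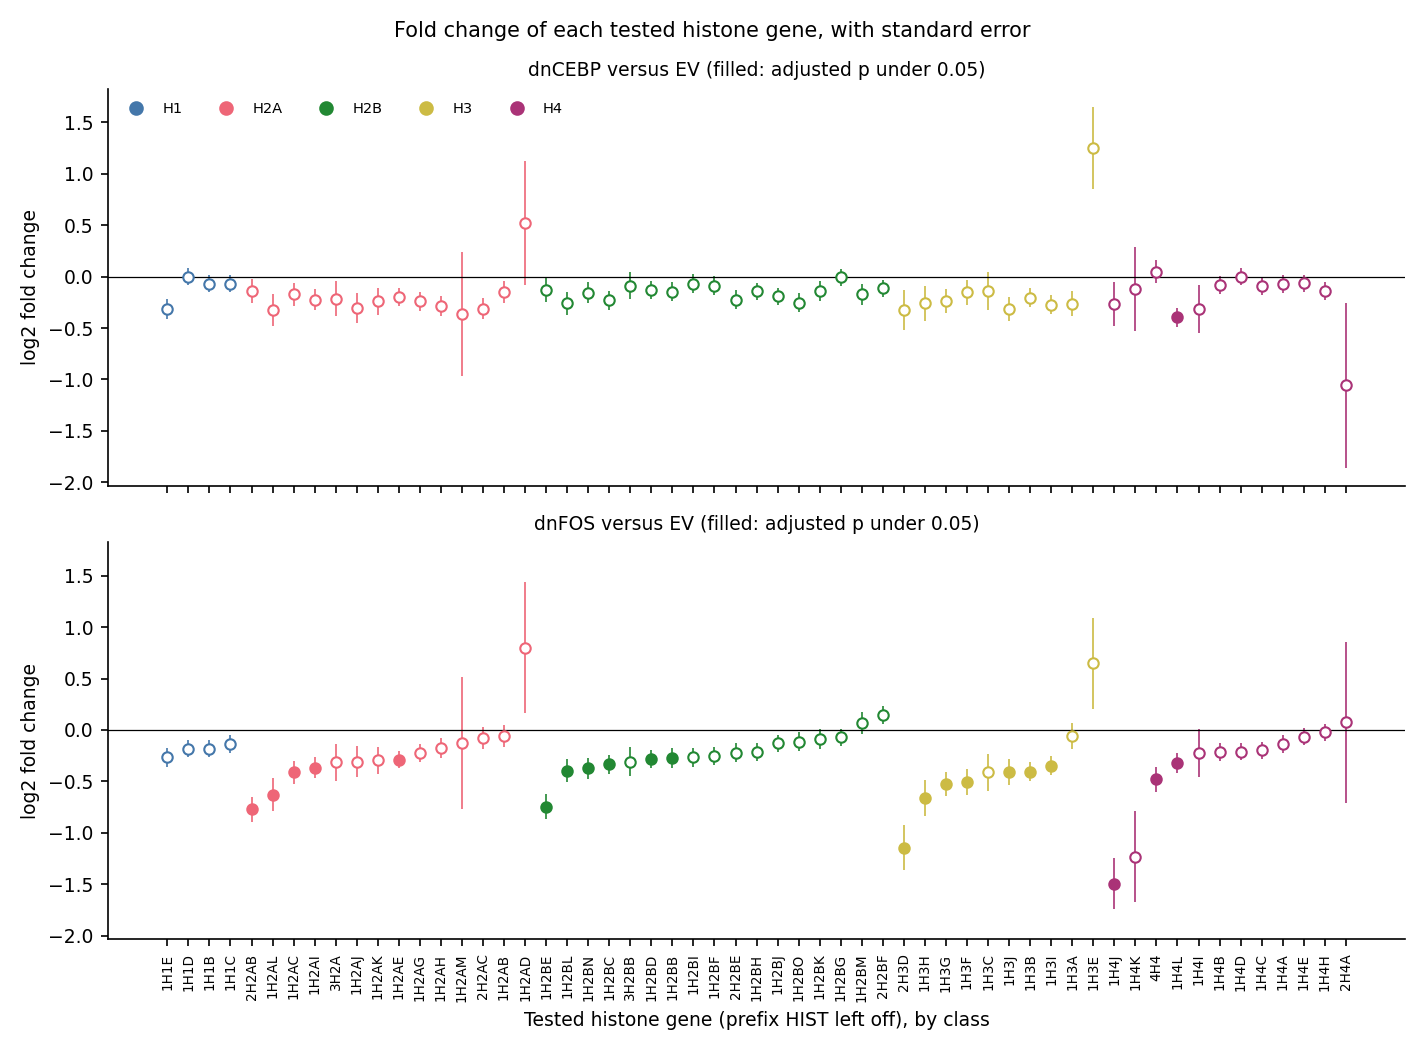
Log2 fold change with its standard error (vertical axis) of each of the 57 tested histone genes (horizontal axis, grouped by class) in dnCEBP and in dnFOS, both against the same EV libraries. Filled points passed an adjusted p of 0.05. In dnFOS 21 genes passed, all lower, and in dnCEBP only HIST1H4L. On library totals 9 passed in dnFOS, 1 of them higher.

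HIST1H4J, an H4 gene of a single exon (chr6:27824108-27824480, plus strand of GRCh38), stood at 24.0 and 14.5 CPM in EV, 19.2 and 12.7 CPM in dnCEBP, and 6.77 and 6.96 CPM in dnFOS. The dnFOS libraries were the lowest and close together, while the replicates of the other groups differed widely. The gene fell by 1.49 ± 0.25 (SE) on the log2 scale in dnFOS (edgeR adjusted p = 0.00111). It shares 79.6% of its windows with other histone genes, and the call was lost without dnFOS replicate 1 (adjusted p = 0.0859) or replicate 2 (adjusted p = 0.1). HIST1H4K, whose windows are shared throughout (100%), stood at 55.1 and 38.0 CPM in EV and 24.1 and 14.9 CPM in dnFOS, without passing the test (edgeR adjusted p = 0.204). It was picked after its values were seen.

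HIST2H3D, a single-exon H3 gene of the chromosome 1 cluster (chr1:149813271-149813681, minus strand), stood at 24.9 and 15.5 CPM in EV, 18.9 and 13.4 CPM in dnCEBP, and 9.83 and 8.31 CPM in dnFOS. The groups dnFOS and EV did not overlap. The fall was 1.15 ± 0.22 on the log2 scale (edgeR adjusted p = 0.00154). It shared 70.3% of its windows. Without EV replicate 1 the log2 fold change was -0.76, and without dnFOS replicate 2 the adjusted p was 0.0883.

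HIST2H2AB, an H2A gene of the same cluster (chr1:149887524-149887916, minus strand), has a single exon with no shared window, and this exon overlaps BOLA1 on the opposite strand. It stood at 67.5 and 54.3 CPM in EV, 59.9 and 50.7 CPM in dnCEBP, and 39.4 and 31.6 CPM in dnFOS. Every dnFOS value was below every value of the other 2 groups. The gene fell by 0.77 ± 0.12 on the log2 scale (edgeR adjusted p = 8.38e-05) and stayed called under all 16 alternatives, with log2 fold changes between -0.95 and -0.45. HIST4H4, an H4 gene that lies alone on chromosome 12 and carries 3 annotated exons, stood at 33.4 and 34.4 CPM in EV, 36.4 and 33.6 CPM in dnCEBP, and 24.5 and 24.0 CPM in dnFOS. Its replicates were close in each group and only dnFOS was low. It fell by 0.48 ± 0.12 on the log2 scale (edgeR adjusted p = 0.00609) and was likewise called under all 16 alternatives, between -0.53 and -0.38.

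HIST1H2BE, an H2B gene with 4 annotated exons that overlap AL353759.1 on the opposite strand, stood at 100.1 and 76.3 CPM in EV, 88.4 and 72.6 CPM in dnCEBP, and 55.9 and 49.0 CPM in dnFOS. Both dnFOS values were below those of the other 2 groups, and the fall from EV was 0.75 ± 0.12 on the log2 scale (edgeR adjusted p = 0.00041). HIST1H3H, an H3 gene, stood at 345.6 and 259.5 CPM in EV, 283.2 and 221.8 CPM in dnCEBP, and 210.6 and 172.0 CPM in dnFOS. Its fall of 0.66 ± 0.18 (edgeR adjusted p = 0.0476) lay at the threshold, with an adjusted p of 0.105 without dnFOS replicate 1 and 0.368 without dnFOS replicate 2. Its log2 fold change was -0.44 without EV replicate 1. HIST1H2AL, an H2A gene whose exon overlaps HIST1H2BN on the same strand, stood at 82.8 and 66.8 CPM in EV, 66.2 and 53.1 CPM in dnCEBP, and 55.7 and 40.3 CPM in dnFOS, a fall of 0.63 ± 0.16 (edgeR adjusted p = 0.0194). Without dnFOS replicate 2 its log2 fold change was -0.43 and the adjusted p 0.0504, and in DESeq2 the adjusted p was 0.0706.

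**Figure D3:**
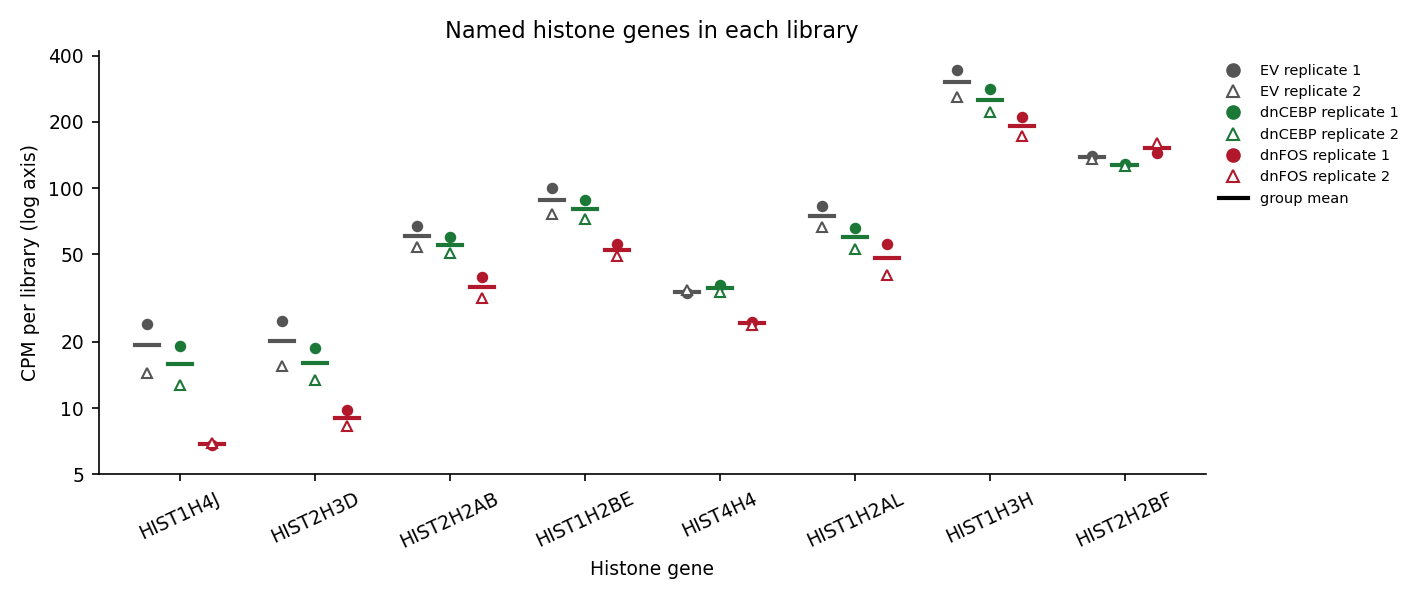
CPM per library (vertical axis, log scale) of 8 histone genes (horizontal axis) in the 3 groups. Points are single libraries and bars group means. For HIST1H2AL the dnFOS values lay below EV but overlapped dnCEBP (53.1 to 66.2 CPM), for HIST2H2BF they lay above both groups, and for the other genes below both.

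Among the genes with the highest EV level per kilobase of annotated exon in each class, HIST1H3B and HIST1H2AE fell. HIST1H3B stood at 467.4 and 406.2 CPM in EV, 400.8 and 357.4 CPM in dnCEBP, and 344.1 and 315.8 CPM in dnFOS, a fall of 0.40 ± 0.09 in dnFOS (edgeR adjusted p = 0.00261, and 0.124 without EV replicate 1). HIST1H2AE stood at 474.3 and 439.0 CPM in EV and 385.9 and 361.7 CPM in dnFOS, a fall of 0.29 ± 0.08 (edgeR adjusted p = 0.0192, with 0.161 without dnFOS replicate 2 and 0.267 without EV replicate 1). HIST1H4C did not pass the test, at 519.2 and 497.7 CPM in EV and 455.0 and 432.9 CPM in dnFOS (log2 fold change -0.20, adjusted p = 0.114). HIST1H1C, at 880.9 and 835.8 CPM in EV and 803.7 and 759.3 CPM in dnFOS, did not pass either (log2 fold change -0.14, adjusted p = 0.309). HIST1H2BK stood at 281.6 and 234.4 CPM in EV and at 251.8 and 234.8 CPM in dnFOS, where the groups overlapped (log2 fold change -0.08, and 0.02 on library totals). HIST1H3G, whose promoter window held the TGATTCA, stood at 165.5 and 134.5 CPM in EV and 113.2 and 95.0 CPM in dnFOS. Both dnFOS values were below both EV values, and its fall of 0.52 ± 0.12 was called (edgeR adjusted p = 0.00511, with 0.231 as the highest over the alternatives).

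Most histone genes are short and rich in G and C, and the libraries differed in how counts depended on those properties. A smooth trend of log2 CPM on exon length and GC content was fitted in each library to the tested genes that are not histone genes. For genes of the length and GC content of the tested histone genes, this trend gave a median log2 difference of -0.22 between dnFOS and EV, of -0.06 between dnCEBP and EV and of -0.16 between dnFOS and dnCEBP. With the trend removed, 6 of the 57 histone genes were called lower in dnFOS and 0 higher, against 8.06% of all genes lower. The 6 were HIST2H3D, HIST2H2AB, HIST1H4J and HIST4H4, which were among the 21, together with HIST1H2BF and HIST1H2BH, which were not. HIST1H2BE had nearly the same log2 fold change (-0.76) with an adjusted p of 0.0521. The median over the 57 was then -0.09, with 39 of 57 below 0. By class it was -0.18 for H2B, -0.14 for H3, -0.08 for H4, -0.04 for H2A and 0.02 for H1. Whether the trend reflects the libraries or the cells was not tested.

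**Figure D4:**
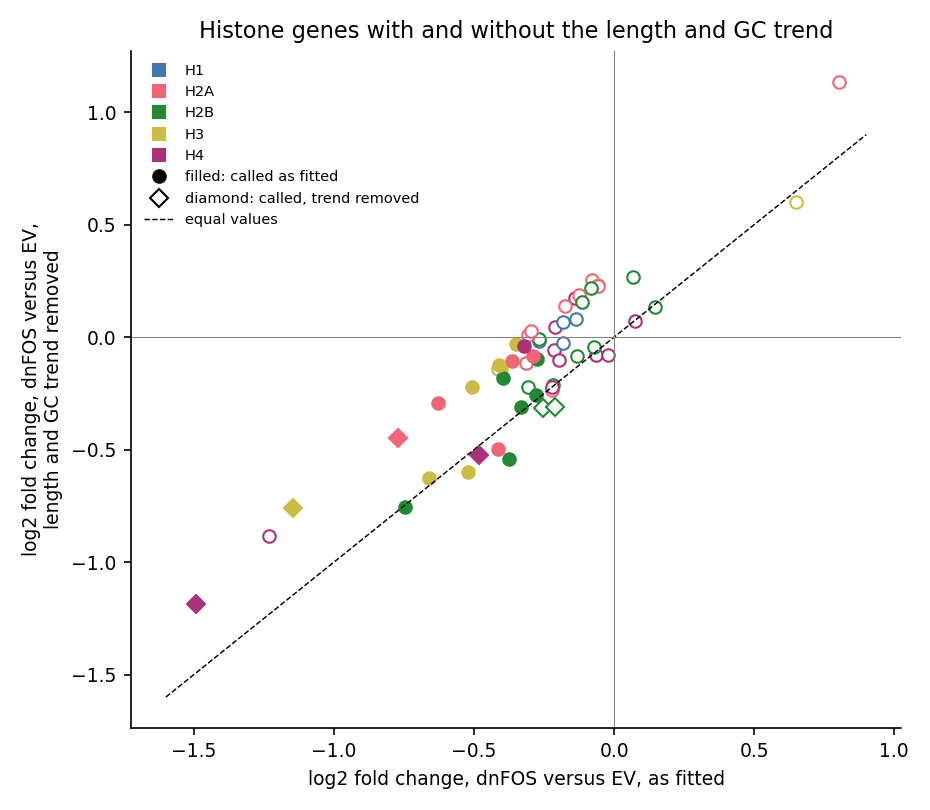
Log2 fold change between dnFOS and EV of the 57 tested histone genes as fitted (horizontal axis) and after a trend on exon length and GC content was removed from each library (vertical axis). Filled symbols were called as fitted, diamonds were called with the trend removed, and the dashed line marks equal values. The median moved from -0.27 to -0.09, and HIST2H2AB, HIST4H4, HIST1H4J and HIST2H3D were called both ways.

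Another RNA without a poly(A) tail moved in the dnFOS libraries. RN7SL1, the RNA of the signal recognition particle, took 6.12% and 4.31% of the counts in dnFOS against 7.75% to 7.94% in the other 4 libraries, and was called lower in dnFOS (log2 fold change -0.69, edgeR adjusted p = 0.0249, with 0.368 once the length and GC trend was removed). Leaving out a dnCEBP library, which does not enter the fold change, gave an adjusted p of 0.144 or 0.142. Its part in the histone result was not tested. RN7SL2, RN7SK, RMRP and RPPH1 were listed at 0 counts in all libraries.

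In dnCEBP against EV, 1 histone gene was called lower and 0 higher, where 0.448% of all genes were called lower, 0.624% higher and 1.07% in all. The gene was HIST1H4L, an H4 gene of a single exon (chr6:27873199-27873510, minus strand). It stood at 99.1 and 92.8 CPM in EV, 79.6 and 66.1 CPM in dnCEBP, and 73.8 and 79.8 CPM in dnFOS. The EV libraries were the highest of the 6, while the dnCEBP and dnFOS values overlapped. The gene fell by 0.40 ± 0.09 on the log2 scale in dnCEBP (edgeR adjusted p = 0.0259) and by 0.32 ± 0.10 in dnFOS (adjusted p = 0.0201). In dnCEBP the call was lost without dnCEBP replicate 2 (adjusted p = 0.718), without EV replicate 1 (0.27) or without EV replicate 2 (0.0836), and the number of histone genes called ranged from 0 to 3 when 1 library was left out. In dnFOS the highest adjusted p over the alternatives was 0.834, with the trend removed.

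The other histone genes leaned the same way in dnCEBP. The log2 fold change was below 0 for 54 of 57, against 50.3% of all genes, with a median of -0.17 against 0.00. At an unadjusted p under 0.05, 16 were lower (28.1%), against 6.11% of all genes, and 1 was higher, against 5.81%. Both dnCEBP libraries lay below both EV libraries for 20 of 57 (35.1%), against 20.9% of all genes. The class medians were -0.25 for H3, -0.23 for H2A, -0.14 for H2B, -0.11 for H4 and -0.07 for H1. The comparison shares the EV libraries with that of dnFOS. Without EV replicate 1 the median was -0.06, without EV replicate 2 it was -0.29, on library totals -0.19 and with the length and GC trend removed -0.14.

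The direct comparison of dnFOS with dnCEBP sets those 4 libraries against each other, but the EV libraries still enter the fit, its scaling and its p-values. The comparison called 5 histone genes lower and 1 higher, where 7.84% of all genes were called lower and 6.83% higher. With only the 4 libraries compared in the fit, 11 histone genes were called and 0 of them were higher, where 15.4% of all genes were called. The balance changed with the scaling. On library totals 4 of 9 called histone genes were higher, where only 25.4% of all called genes were lower. With the length and GC trend removed 7 of 10 were higher, where 59.4% of all called genes were lower. The lower genes were HIST1H4J (log2 fold change -1.23, edgeR adjusted p = 0.00419), HIST2H3D (-0.82, 0.0154), HIST2H2AB (-0.63, 0.000592), HIST1H2BE (-0.61, 0.00188) and HIST4H4 (-0.53, 0.00244). All 5 were also among those called in dnFOS against EV, from the same dnFOS libraries. HIST2H2AB and HIST4H4 were called in all 16 alternatives. HIST1H4J was lost without either dnFOS replicate (adjusted p = 0.157 and 0.153) and with the length and GC trend removed (0.0631), HIST1H2BE only with that trend removed (0.0891), and HIST2H3D without dnCEBP replicate 1 (0.162, log2 fold change -0.55) or without either dnFOS replicate (0.0977 and 0.232). The higher gene was HIST2H2BF, an H2B gene with 4 annotated exons, at 144.6 and 161.0 CPM in dnFOS, 129.2 and 125.6 CPM in dnCEBP and 139.9 and 135.7 CPM in EV. Both dnFOS values were above the others, by 0.26 ± 0.09 over dnCEBP on the log2 scale (adjusted p = 0.0376). That call was kept in only 8 of 16 alternatives and lost without either dnCEBP replicate (0.103 and 0.162), without dnFOS replicate 2 (0.285) or without either EV replicate (0.0547 and 0.0667). Its exons overlap those of FCGR1A on the opposite strand, and whether counting used strand is not stated. The median over the 57 genes was -0.10 with 38 below 0, against 0.02 and 47.3% for all genes. It turned to 0.02 on library totals, where the median of all genes was 0.14, and to 0.04 with the length and GC trend removed. The median thus had no fixed sign across these scalings, while all 5 lower genes kept a negative value under the 16 alternatives. The number called moved when single libraries were left out, among histone genes and among all genes.

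The genes lie in clusters, and H2A and H2B genes often stand head to head with their starts close together. There were 11 such pairs, 219 to 331 bases apart, and both genes were tested in 10. In dnFOS against EV both genes were called lower in 2 pairs, HIST1H2AC with HIST1H2BC and HIST1H2AI with HIST1H2BL. In 1 pair only HIST1H2AE was called, and its partner HIST1H2BG, at 246.4 and 233.7 CPM in EV and 239.4 and 217.1 CPM in dnFOS, was not (log2 fold change -0.07 against -0.29). In the other 7 pairs neither gene was called. Divided at gaps of over 500 kilobases, which is a split made after the data were seen, the chromosome 6 cluster fell into 3 blocks with 27, 5 and 16 tested genes. In dnFOS 9 of 27, 0 of 5 and 9 of 16 were called lower, beside 7.76% of all genes, with medians of -0.21, -0.17 and -0.36. At that share no call is a likely outcome in a block of 5 genes. In dnCEBP the medians were -0.13, -0.24 and -0.26. The difference between the blocks was not tested.

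Called genes were found among short and long, unique and shared genes. In dnFOS against EV, 14 of 45 tested genes with 1 exon and 7 of 12 with more were called lower, with medians of -0.25 and -0.31. Of 28 genes with under 500 bases of exon, 10 were called, and of 29 longer ones, 11. Without the genes that share over 50% of their windows or overlap another gene, which leaves out HIST2H2AB, HIST1H2BE, HIST2H3D and HIST1H4J, 13 of 42 were called lower with a median of -0.22. In dnFOS against dnCEBP only 1 of these 42 was called, HIST4H4.

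The replicates of each group differed in these genes in a way that most genes did not. Replicate 1 was above replicate 2 for 52 of 57 histone genes in EV, 51 in dnCEBP and 47 in dnFOS, with median log2 differences of 0.24, 0.20 and 0.15, while the medians over all genes were between -0.01 and 0.00. The median gap between EV replicates was thus close in size to the median difference between dnFOS and EV. In 42 genes neither shared nor overlapping the medians were 0.18, 0.14 and 0.13. HIST2H4A, one of the near-identical copies, differed most, by 1.96 in EV and 1.37 in dnFOS, and the cause of the replicate differences was not tested.

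**Figure D5:**
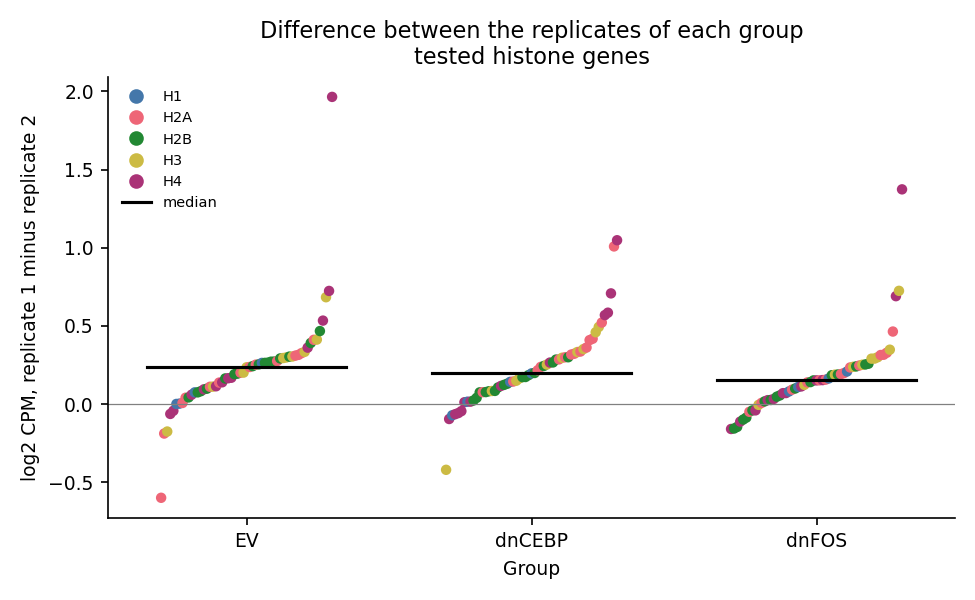
Difference in log2 CPM between replicate 1 and replicate 2 (vertical axis) of each tested histone gene in the 3 groups (horizontal axis), with the median as a line. Replicate 1 was the higher for 52, 51 and 47 of the 57 genes in EV, dnCEBP and dnFOS.

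Genes that work with the replication-dependent histones were followed as lists. Of 11 tested genes for replacement histones, which are made outside S phase as well, 0 were called higher and 2 lower in dnFOS against EV, with a median of 0.17 on the log2 scale, where 7.24% of all genes were called higher and 7.76% lower. The lower genes were H2AFJ, at 7.05 and 4.62 CPM in EV and 2.73 and 2.90 CPM in dnFOS (log2 fold change -1.06, edgeR adjusted p = 0.00826, and 0.182 without EV replicate 1), and H3F3B, which encodes the replacement histone H3.3, at 437.9 and 396.4 CPM in EV and 324.1 and 320.5 CPM in dnFOS (-0.37, 0.0029, and 0.122 without EV replicate 1). H3F3A, the other gene for H3.3, went the other way without being called, at 99.8 and 96.1 CPM in EV and 113.4 and 113.5 CPM in dnFOS (0.21, edgeR adjusted p = 0.113). H2AFX, whose product is phosphorylated at DNA breaks, stood at 13.5 and 12.4 CPM in EV, 11.9 and 11.5 CPM in dnCEBP and 15.6 and 17.0 CPM in dnFOS. It was higher in dnFOS than in dnCEBP (0.47, adjusted p = 0.0407, and up to 0.219 with 1 library left out) but not called against EV (0.33, 0.161), where it passed only with the length and GC trend removed (0.65, 0.00259). H2AFZ, a variant placed at promoters, stood at 204.5 and 205.4 CPM in EV and 235.3 and 242.8 CPM in dnFOS (0.22, 0.0768). It passed on library totals (0.32, adjusted p = 0.00757), with the replicate block (0.22, 0.0296) and with the length and GC trend removed (0.24, 0.0258). In dnCEBP 1 variant gene, H2AFY, was called higher, at 418.5 and 420.2 CPM against 338.4 and 331.9 CPM in EV (0.32, adjusted p = 0.0435), a call that was lost when any 1 of these 4 libraries was left out (adjusted p of 0.0864 to 0.311).

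Of 18 tested genes for the transcription and processing of histone mRNA, 3 were called higher and 0 lower in dnFOS against EV, beside 7.24% and 7.76% of all genes, with a median of 0.10, and 0 were called in dnCEBP. SLBP stood at 47.1 and 41.7 CPM in EV, 47.5 and 47.7 CPM in dnCEBP and 55.8 and 56.2 CPM in dnFOS. It rose by 0.33 ± 0.10 on the log2 scale (edgeR adjusted p = 0.0256), and the call was lost without EV replicate 2 (0.285), dnFOS replicate 1 (0.0532) or dnFOS replicate 2 (0.0854). NPAT stood at 29.8 and 29.3 CPM in EV, 29.4 and 32.2 CPM in dnCEBP and 38.7 and 36.3 CPM in dnFOS, a rise of 0.35 ± 0.12 (adjusted p = 0.0412). That call was lost without any 1 of the dnFOS or EV libraries (0.0733 to 0.189) and with the length and GC trend removed (0.598). CPSF2, a subunit of the complex that cleaves histone pre-mRNA, stood at 75.0 and 72.8 CPM in EV and 99.1 and 104.0 CPM in dnFOS and was called in every alternative (0.46, adjusted p = 0.000525). In dnFOS against dnCEBP, CPSF2 was higher (0.35, edgeR adjusted p = 0.00568, and 0.0552 without dnFOS replicate 2) and ZNF473, a component of the U7 processing machinery, lower (-0.43, 0.0338, and 0.398 without dnFOS replicate 2).

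Of 22 tested histone chaperone genes, 3 were called higher and 2 lower in dnFOS against EV, beside 7.24% and 7.76% of all genes, with a median of 0.08, and 0 were called in dnCEBP. ANP32E, a chaperone that removes H2A.Z from chromatin, rose from 93.2 and 86.8 CPM in EV to 123.1 and 162.9 CPM in dnFOS (0.66, edgeR adjusted p = 4.36e-05). RBBP4, which binds H3 and H4 in several complexes, rose as well (0.36, 0.00362, and 0.0514 without EV replicate 1 or 0.0552 without EV replicate 2). ATRX, which acts with DAXX to deposit H3.3, was called at 0.29 (0.0261), with 0.17 and an adjusted p of 0.345 without dnFOS replicate 2 and 0.01 once the length and GC trend was removed, and the centromeric chaperone HJURP was called lower (-0.36, 0.0464, and 0.331 without dnFOS replicate 2). In dnFOS against dnCEBP 5 chaperone genes were called higher and 0 lower, beside 6.83% and 7.84% of all genes, among them HIRA (0.77, 0.0453), the H1 and H3 chaperone NASP (0.32, 0.0092), ANP32E and RBBP4. Without dnFOS replicate 2, HIRA had a log2 fold change of 0.48 and an adjusted p of 0.436, RBBP4 an adjusted p of 0.0798 and NASP one of 0.0582.

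Since the histone genes are tied to S phase, 43 S-phase genes were followed as a further list. The list overlaps the earlier ones. SLBP, CASP8AP2 and CCNE2 are also in the histone mRNA list, and NASP, MCM2 and CHAF1B in the chaperone list. The calls of SLBP against EV and of NASP against dnCEBP are thus counted in both lists. In dnFOS against EV 7 of the 43 were called higher and 0 lower, beside 7.24% and 7.76% of all genes, with a median of 0.14. In dnCEBP 0 were called, with a median of 0.03. HELLS, a chromatin remodeller, stood at 39.3 and 40.8 CPM in EV, 39.4 and 40.3 CPM in dnCEBP and 62.3 and 67.5 CPM in dnFOS (0.69, edgeR adjusted p = 2.68e-05), and was called in all alternatives. BRIP1 (0.53, 0.00482), RAD51AP1 (0.50, 0.0121) and TIPIN (0.50, 0.0363), which act in repair and at the replication fork, were called as well. With the length and GC trend removed their adjusted p-values were 0.0937, 0.308 and 0.0836, and with 1 library left out they reached 0.0851, 0.122 and 0.161. Against dnCEBP, 9 were called higher and 0 lower, beside 6.83% and 7.84% of all genes, with UHRF1 (0.72, 0.0121), E2F8 (0.69, 0.00779) and the helicase subunit MCM6 (0.47, 0.000574) beside HELLS. UHRF1 was lost without dnCEBP replicate 2, where its log2 fold change was 0.39, and E2F8 had an adjusted p of up to 0.0901 with 1 library left out. In dnFOS against EV 12 of the 43 genes lay below 0, none of them called.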

How the data were processed

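Per the labels, the authors made the libraries from total RNA with a ribosomal depletion kit and sequenced paired-end reads of 75 bases. The labels also name oligo(dT) priming for a reverse transcription step. The deposited tables hold whole-number counts for each gene, not normalized. The submitters' processing notes name Trimmomatic, HISAT2, featureCounts of Subread and hg38, without versions. The annotation, the use of strand and the handling of reads with several matches are not given in the sources used here, and reads of near-identical copies may have been dropped.

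Gene IDs were matched to GENCODE release 29 (58394 of 60612). Each library's group and number were read from its title. Counts were filtered with filterByExpr (minimum count 10), scaled with TMM factors (0.956 to 1.05) and fitted in edgeR 4.0.16 (R 4.3.3) by the quasi-likelihood method with robust estimation, a mean per group and all 6 libraries, with 3 residual degrees of freedom. The 3 contrasts were tested two-sided, adjusted by the Benjamini-Hochberg method over 15395 genes and called at 0.05. Standard errors came from the fold change and its F statistic. The histone genes and the other lists were chosen with earlier results of these data known. Named were every called histone gene where at most 12 were called, otherwise the 6 largest rises and falls, the most abundant gene per kilobase in each class, the near-identical copies, SLBP, NPAT, H2AFX and H2AFZ, and up to 4 called genes per list and comparison. Other genes are named for a sequence, a pair, a neighbour or a shared product. Promoter windows came from RefSeq.

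Replicates of a group differed by more than sampling noise, where the chi-square divided by its degrees of freedom was 7.99 to 13.99. Same-numbered libraries did not deviate together over all genes (Pearson correlations of 0.02, 0.03 and 0.09). Alternatives were median-of-ratios factors, library totals, no filter, a mean of at least 1 CPM, features over 1% left out, only the 4 libraries compared, DESeq2 1.42.0, limma-voom (limma 3.58.1), copies summed, a replicate block, leaving out every library in turn, and removal of a trend on exon length and GC content. Counts of alternatives in the text leave out the replicate block. Leaving out genes in doubt was added after the data were seen. The edgeR fit and the removal of the length and GC trend were tested on simulated counts.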

Additional observations from a re-analysis of the deposited data

How the results depend on the processing

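Histone genes called in dnCEBP against EV numbered 1, and ranged from 0 to 3 with 1 library left out (2 without either dnFOS replicate). They numbered 0 with the length and GC trend removed. In dnFOS against EV the number was 21. It was 9 on library totals, 6 with the trend removed (4 of them among the 21), 13 of 42 without the genes in doubt, where fewer genes were tested, and 6 to 27 with 1 library left out. With 1 library left out, the number called among all genes moved as well, in each comparison. The median of the histone genes in dnFOS against EV moved from -0.267 to -0.0853 with the trend removed. In dnFOS against dnCEBP the number was 6. It was 11 without a low-count filter, 11 with only the 4 libraries compared, 10 with the trend removed (7 higher), 1 without the genes in doubt, and 3 to 10 with 1 library left out. The median there was -0.10 and reversed to 0.0201 on library totals and 0.0360 with the trend removed, and the ratio of summed CPM, -0.10, reversed to 0.0205 on library totals. DESeq2 called 19 and limma-voom 22 histone genes in dnFOS against EV. Where the construction does not show it, the cause was not tested.

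The replicate number was also used as a block, although the numbers were not shown to pair the samples. In the 3 comparisons in the same order, 9, 33 and 15 histone genes were then called, against 1, 21 and 6 without it. Among all genes, 3.17%, 20.6% and 19.6% were called with the block, against 1.07%, 15% and 14.7% without it. Pearson correlations of deviations over the 57 histone genes alone were 0.49 (EV with dnCEBP), 0.53 (EV with dnFOS) and 0.37 (dnCEBP with dnFOS). The rank correlations (Spearman) were 0.60, 0.25 and 0.31 in the same order. Single genes not called in dnCEBP against EV changed sign: NPAT lay between -0.00624 (without dnCEBP replicate 2) and 0.126 with 1 library left out and at -0.0231 with the trend removed, H2AFX went to 0.0771 with the trend removed, and H2AFZ lay between -0.110 and 0.0619 (without dnCEBP replicate 1). In dnFOS against EV, HIST1H1C went to 0.0818 with the trend removed, and HIST1H2BK to 0.0151 on library totals and 0.22 with the trend removed, and lay between -0.224 and 0.0543 (without EV replicate 1) with 1 library left out. Where a group was left with 1 library, it was assumed to vary like the others. Differences in the 13 untested genes, with at most 20 counts, were not detectable at this depth.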
